A study of Mus musculus with 12 samples.

Results

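The ADAMTS proteases (a disintegrin and metalloproteinase with thrombospondin motifs) were examined in bulk RNA sequencing of whole neonatal mouse lung. The members were the 10 genes Adamts1, Adamts2, Adamts4, Adamts5, Adamts8, Adamts9, Adamts10, Adamts12, Adamts15 and Adamts17, picked by gene symbol from the 52550 genes of the deposited count table. All 10 passed the filter on low counts and were among the 15885 protein-coding genes tested. The study compared wild-type (WT) mice with adrenomedullin-haplodeficient (Adm+/-) mice, which carry a constitutive loss of 1 Adm allele in every cell on a C57BL/6J background, so the lack is not limited to any lung cell type. Pups received intraperitoneal lipopolysaccharide (LPS) from Escherichia coli O55:B5 at 6 mg/kg, or phosphate-buffered saline (PBS) as control, once a day for 3 days, the last on postnatal day 5, when the lungs were collected 6 h later. This gave 4 groups of 3 mice with 1 library per mouse: WT PBS (replicates 3, 4 and 5), WT LPS (9, 10 and 11), Adm+/- PBS (6, 7 and 8) and Adm+/- LPS (1, 2 and 12). LPS given to newborn mice models the inflammation that precedes bronchopulmonary dysplasia, a chronic lung disease of preterm infants, and adrenomedullin is a secreted vasoactive peptide.

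ADAMTS proteases are secreted zinc metalloproteinases that cut or remodel the extracellular matrix. They are made as inactive precursors, most of which are cleaved by furin-type convertases, and their ancillary domains with thrombospondin repeats guide them to their substrates. The hyalectanases Adamts1, Adamts4, Adamts5, Adamts8, Adamts9 and Adamts15 cleave aggrecan, versican and related hyaluronan-binding proteoglycans, which form the loose provisional matrix of developing and inflamed tissue. Adamts2 removes the N-terminal propeptide of fibrillar procollagens, Adamts10 and Adamts17 act on fibrillin microfibrils, and Adamts12 belongs to the clade that binds cartilage oligomeric matrix protein. Tissue inhibitor of metalloproteinases 3, encoded by Timp3, is the main endogenous inhibitor of several of these enzymes.

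Total counts per library ranged from 22382535 to 38062873. The libraries WT PBS replicate 5 and Adm+/- PBS replicate 6 stood apart, with 77.8% and 80.1% of counts in protein-coding genes against 84.3 to 87.6% in the others, and with 16.6% and 13.3% of counts in the noncoding gene Gm26917 against 5.42 to 7.40%. Adm itself averaged 5.21 ± 1.66 CPM (counts scaled to TMM-adjusted library size; SD, n = 3) in WT PBS and 3.69 ± 0.855 in Adm+/- PBS, and 6.79 ± 2.03 in WT LPS and 4.65 ± 1.42 in Adm+/- LPS. The Adm+/- means were the lower in both treatments, but the ranges overlapped and neither difference passed the test (edgeR adjusted p = 0.999 in PBS and 0.48 in LPS). The 10 lung epithelial markers summed to between 13243 and 17099 CPM in every library, with none at 0. Skeletal muscle markers (12 genes) summed to 806 to 2059 CPM in the WT LPS libraries and to 10.2 to 37.8 CPM in all others, and squamous epithelial markers (10 genes) to 25.2 to 2893 CPM in WT LPS and 1.39 to 40.7 CPM elsewhere. The muscle marker Pvalb was at 0 in both Adm+/- groups, and of the squamous markers Krt6b, Sprr3 and Tmprss11b were at 0 in both PBS groups. Their part in the results below was not tested. In whole lung, fewer cells of a type and less RNA per cell cannot be told apart.

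The members lie on 8 chromosomes, with 2 neighbouring pairs. On mouse build mm10, Adamts1 (ENSMUSG00000022893, chr16:85793827-85803113) and Adamts5 (ENSMUSG00000022894, chr16:85856173-85901828) lie on the minus strand 53.1 kb apart with 0 protein-coding genes between them. Adamts15 (ENSMUSG00000033453, chr9:30899155-30922452, minus strand) and Adamts8 (ENSMUSG00000031994, chr9:30942562-30963838, plus strand) are 20.1 kb apart and point away from each other. The remaining genes are Adamts4 (ENSMUSG00000006403, chr1:171250421-171260637, plus strand), Adamts9 (ENSMUSG00000030022, chr6:92772699-92943492, minus strand), Adamts2 (ENSMUSG00000036545, chr11:50602084-50807573, plus strand), Adamts10 (ENSMUSG00000024299, chr17:33524204-33553782, plus strand), Adamts12 (ENSMUSG00000047497, chr15:11064790-11349231, plus strand) and Adamts17 (ENSMUSG00000058145, chr7:66839735-67153171, plus strand). Genes on the opposite strand cover 10.6% of the exon bases of Adamts8 (Gm29724) and 12% of those of Adamts9 (9530026P05Rik and its neighbours). Whether counting used the strand is not given in the sources used here, so reads from those stretches are uncertain.

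RefSeq sequence (GRCm38.p6) upstream of the transcription start was used for 5 of the 10 members: Adamts1, Adamts2, Adamts9, Adamts12 and Adamts17. The 250 bases before the start are printed 5′ to 3′ on the gene's strand for 4 of them. Adamts17 and Adamts12 are shown as members that passed the test for lower counts under LPS, Adamts17 in both genotypes and Adamts12 in WT, and Adamts1 and Adamts9 as members with unadjusted p under 0.05 between the genotypes under LPS. Capitals mark matches on either strand to a TATA box, a CCAAT box or a GC box.
Adamts17 (chr7:66839485-66839734, plus strand): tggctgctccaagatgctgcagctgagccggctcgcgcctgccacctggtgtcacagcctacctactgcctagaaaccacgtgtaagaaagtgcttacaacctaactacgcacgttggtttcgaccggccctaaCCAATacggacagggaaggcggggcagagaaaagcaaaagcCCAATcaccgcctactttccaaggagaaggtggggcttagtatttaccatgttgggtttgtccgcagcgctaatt
Adamts12 (chr15:11064523-11064772, plus strand): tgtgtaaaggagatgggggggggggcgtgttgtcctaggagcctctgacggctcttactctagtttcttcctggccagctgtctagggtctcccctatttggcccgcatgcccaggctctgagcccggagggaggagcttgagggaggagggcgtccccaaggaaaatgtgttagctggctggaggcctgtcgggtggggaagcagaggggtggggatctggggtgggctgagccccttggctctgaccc
Adamts1 (chr16:85803114-85803363, minus strand): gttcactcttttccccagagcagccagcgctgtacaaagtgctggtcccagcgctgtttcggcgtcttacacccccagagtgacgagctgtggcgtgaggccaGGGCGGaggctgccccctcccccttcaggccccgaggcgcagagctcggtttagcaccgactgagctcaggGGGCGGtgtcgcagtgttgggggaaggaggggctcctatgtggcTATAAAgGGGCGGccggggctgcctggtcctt
Adamts9 (chr6:92943535-92943784, minus strand): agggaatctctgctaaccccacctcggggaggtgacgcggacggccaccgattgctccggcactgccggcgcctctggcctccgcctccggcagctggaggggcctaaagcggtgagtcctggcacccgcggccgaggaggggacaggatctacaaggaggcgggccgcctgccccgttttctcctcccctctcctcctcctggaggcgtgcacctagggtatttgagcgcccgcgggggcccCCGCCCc

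The window of Adamts1 held a TATA box, spelled TATAAA, 32 to 27 bases before the start and 3 GC boxes, which were searched for as GGGCGG. That of Adamts9 held 1 GC box, and that of Adamts17 held 2 CCAAT boxes, named by their letters. The window of Adamts2, which is not printed, held 5 GC boxes and had the highest GC content of the 5, 78%, against 54.4% for Adamts17 and a median of 52.4% over all windows. Over 32851 windows of this length in the same table, 12.4% held a TATA box, 33.8% a CCAAT box and 32.7% a GC box. Sites for AP-1 (TGANTCA, 6.75% of windows), CRE (TGACGTCA, 1.55%), STAT (TTCNNNGAA, 7.02%) and NF-kappa B (3.9%), searched on both strands, were matched in 0 of the 5 member windows. These are letter matches in short windows and say nothing of binding.

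To compare levels between genes, CPM were divided by the exon length of each gene in kb. In WT PBS lungs the order by mean CPM per kb was Adamts1 (55.5 ± 4.73, SD, n = 3), Adamts10 (49.6 ± 7.10), Adamts2 (34 ± 6.46), Adamts17 (32.9 ± 8.22), Adamts9 (18.4 ± 1.33), Adamts15 (13.1 ± 2.87), Adamts8 (13.0 ± 2.17), Adamts12 (7.80 ± 0.378), Adamts4 (4.25 ± 0.741) and Adamts5 (3.01 ± 0.0215). The neighbours Adamts1 and Adamts10, Adamts2 and Adamts17, and Adamts15 and Adamts8 overlapped in their ranges, and the other neighbours did not. Adamts1 had the highest mean and Adamts5 the lowest in each of the 4 groups. In Adm+/- LPS every library had Adamts15 (21.1 to 26.8 CPM per kb) above Adamts17 (16.1 to 17.6) and Adamts4 (6.56 to 7.73) above Adamts12 (5.43 to 5.93), while in WT LPS the ranges of Adamts15 (14.7 to 29.3) and Adamts17 (14.3 to 18.2) overlapped.

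**Figure D1:**
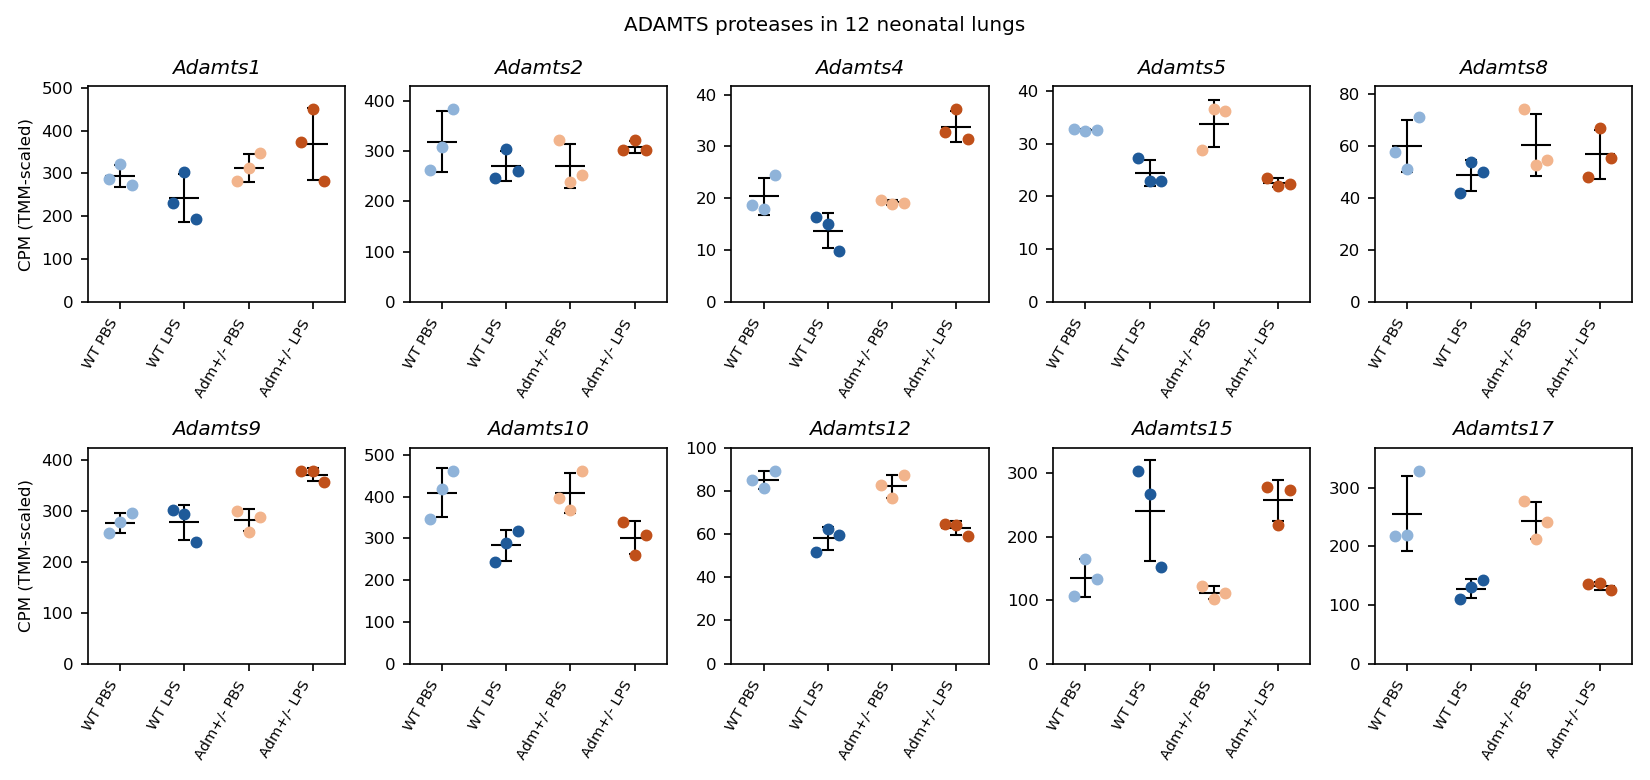
TMM-scaled CPM of each of the 10 genes (vertical axis, from 0, 1 panel per gene) in the 4 groups; points are libraries, horizontal bars the mean and whiskers the SD of 3 mice. Adamts4 sits between 31.5 and 37.2 CPM in Adm+/- LPS and between 9.92 and 24.5 CPM in all other libraries, while Adamts17 is lower in both LPS groups.

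The first question was how LPS changed these genes in WT lungs. At an adjusted p under 0.05 with an absolute log2 fold change over 0.5, 1 of the 10 genes rose (Adamts15) and 4 fell (Adamts4, Adamts10, Adamts12 and Adamts17). Among all genes tested, 10.5% were called higher and 7.09% lower, so the share of members called higher was near the background. The median log2 fold change of the members was −0.36, against 0.01 over all genes tested. The WT LPS libraries did not overlap the WT PBS libraries for 5 of the members, compared with 36.2% of all genes. Adamts12 and Adamts17 were the 2 calls left when WT PBS replicate 5 and Adm+/- PBS replicate 6 were left out together. The stricter treat test of limma-voom, which asks whether a change exceeds 0.5 rather than 0, called 0 of the 10 members and 3.41% of all genes, with its lowest adjusted p among the members at 0.13 (Adamts17).

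In Adm+/- lungs LPS raised 2 members (Adamts4 and Adamts15) and lowered 2 (Adamts5 and Adamts17), against a background of 12.8% of genes called higher and 12.2% called lower. The median log2 fold change of the members was 0.05, against −0.01 over all genes tested. Groups did not overlap for 7 of the 10 members and for 53.7% of all genes. These 4 calls held in each of the 12 edgeR fits that left out 1 library, but the limma-voom treat test against 0.5 ended all 4. It called 0 members and 7.17% of all genes, with its lowest adjusted p among the members at 0.0741 (Adamts15).

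The genotypes were then compared directly. In PBS, 0 of the 10 members and 0% of all genes passed the threshold by edgeR's quasi-likelihood test. At unadjusted p under 0.05 there were 0 members and 2.17% of genes, and DESeq2 called 0 members and 0% of genes. Under LPS, 1 member was higher in Adm+/- than in WT (Adamts4), beside 0.327% of all genes higher and 1.72% lower. DESeq2 called 2 members (Adamts1 and Adamts4) and 5.06% of genes, and the treat test called 0 members and 0.497% of genes. Ranges did not overlap for 2 members, Adamts4 and Adamts9, and for 24.6% of genes. For the difference between the LPS responses of the genotypes, 0 members were called by edgeR, where 0.145% of genes were, and 2 (Adamts4 and Adamts9) had an unadjusted p under 0.05, as did 7.85% of genes. DESeq2 called 1 member, Adamts4, and 1.06% of genes. These comparisons share libraries, so the WT and Adm+/- LPS groups enter more than 1 of them.

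**Figure D2:**
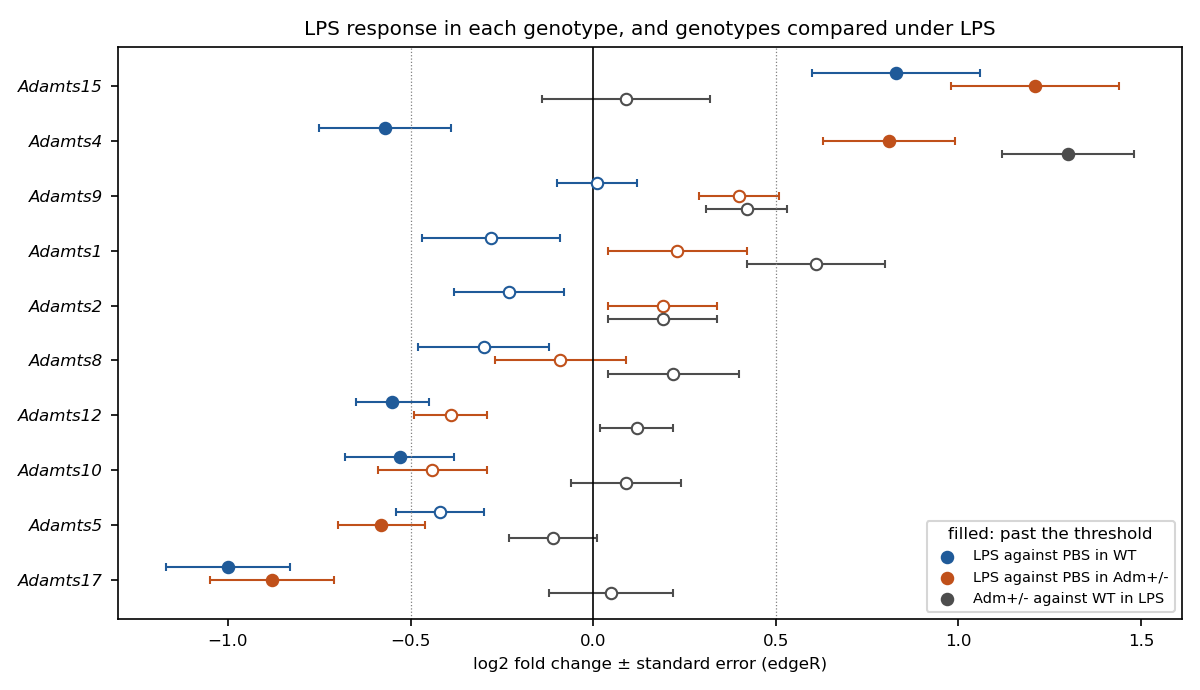
Log2 fold change (horizontal axis) with its standard error from the edgeR fit for the 10 genes in the LPS comparison within WT (blue), within Adm+/- (orange) and for Adm+/- against WT under LPS (grey); filled points passed the threshold and dotted lines mark ±0.5. Adamts4 lies at −0.57 in WT and 0.81 in Adm+/-, whereas Adamts15 and Adamts17 lie on the same side of 0 in both genotypes.

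Adamts4 (aggrecanase-1) was the hyalectanase whose values parted most between the genotypes under LPS. WT PBS libraries held 18.8, 18.0 and 24.5 CPM and WT LPS libraries 16.4, 15 and 9.92 CPM. Adm+/- PBS libraries held 19.7, 18.9 and 19.1 CPM and Adm+/- LPS libraries 32.7, 37.2 and 31.5 CPM. All 3 Adm+/- LPS libraries were above every other library, and all 3 WT LPS libraries were below every PBS library. The log2 fold change with LPS was −0.57 ± 0.18 (SE) in WT (adjusted p = 0.045) and 0.81 ± 0.18 in Adm+/- (adjusted p = 0.00576). Adm+/- LPS exceeded WT LPS by 1.30 ± 0.18, or 2.45-fold (adjusted p = 0.00397), and this call held in each of the 12 edgeR fits without 1 library but not by the treat test against 0.5 (adjusted p = 0.0536). The difference between the responses was 1.38 ± 0.26, with an unadjusted p of 0.000181 and an adjusted p of 0.0819, which missed the threshold. DESeq2 gave 1.39 with an adjusted p of 0.000145 and was the only alternative to call it. This difference passed in 0 of the 12 edgeR fits without 1 library. Its adjusted p reached 0.637 over the alternatives. The fall in WT was the least stable of the calls, since it passed in 3 of the 12 fits without 1 library (those without WT PBS replicate 4, Adm+/- PBS replicate 6 or WT LPS replicate 9) and ranged there from −0.72 to −0.38, the latter without WT LPS replicate 11. It was also lost without WT PBS replicate 5 and Adm+/- PBS replicate 6.

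Neutrophil markers (10 genes) summed to 61.6 to 192 CPM in WT PBS and 1733 to 3065 CPM in WT LPS, and to 42.4 to 70.0 CPM in Adm+/- PBS and 1652 to 1967 CPM in Adm+/- LPS. Macrophage markers (10 genes) summed to 1727 to 2422 CPM in WT LPS and 1738 to 2291 CPM in Adm+/- LPS. Between the 2 LPS groups the summed ranges of skeletal muscle markers (806 to 2059 CPM in WT and 17.3 to 37.8 CPM in Adm+/-) and of endothelial markers (3190 to 3287 and 3413 to 3799 CPM) did not overlap, and those of the neutrophil, macrophage and other marker lists did. The part of any of these lists in the Adamts4 values was not tested.

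Adamts5 (aggrecanase-2), the other major aggrecan-cleaving enzyme, behaved differently. It measured 32.7, 32.3 and 32.6 CPM in WT PBS, 27.2, 23.0 and 22.9 in WT LPS, 28.7, 36.5 and 36.1 in Adm+/- PBS and 23.5, 21.9 and 22.4 in Adm+/- LPS. Both LPS groups lay below their PBS groups without overlap. The log2 fold change was −0.58 ± 0.12 in Adm+/- (adjusted p = 0.00333) and −0.42 ± 0.12 in WT (adjusted p = 0.027), the latter inside the fold-change limit. Between the genotypes the responses differed by −0.16 ± 0.16 (adjusted p = 0.965). The ratio of Adamts4 to Adamts5, both per kb, was 1.41 ± 0.244 in WT PBS, 1.26 ± 0.258 in WT LPS, 1.30 ± 0.214 in Adm+/- PBS and 3.36 ± 0.383 in Adm+/- LPS (SD, n = 3). The lowest Adm+/- LPS library, at 3.12, was above the highest of the other libraries, at 1.69.

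**Figure D3:**
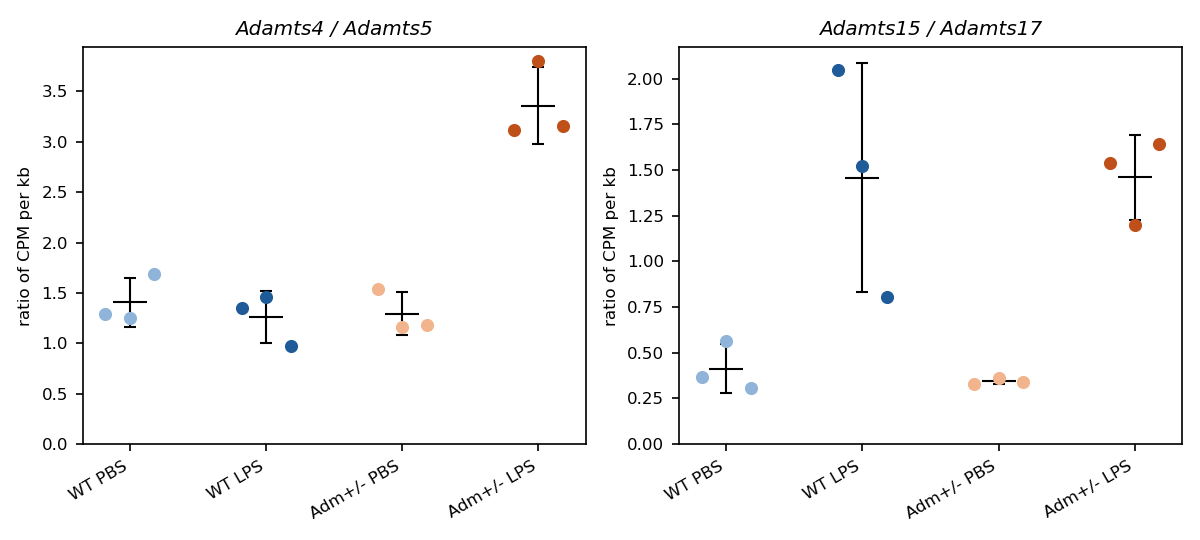
Ratio of Adamts4 to Adamts5 (left) and of Adamts15 to Adamts17 (right), each as CPM per kb (vertical axes, from 0), in the 4 groups; points are libraries, bars the mean and whiskers the SD of 3 mice. The Adamts4 to Adamts5 ratio is 3.12 to 3.80 in Adm+/- LPS alone, and the Adamts15 to Adamts17 ratio is 0.805 to 2.05 in the LPS groups and 0.306 to 0.563 in the PBS groups.

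Adamts15, a versican- and aggrecan-cleaving enzyme, was the member with the greatest rise. It measured 106, 165 and 134 CPM in WT PBS and 304, 267 and 152 CPM in WT LPS, where replicate 11 fell within the PBS range. In Adm+/- it went from 122, 102 and 111 CPM to 278, 219 and 274 CPM, with no overlap. Its log2 fold change was 1.21 ± 0.23 in Adm+/- (adjusted p = 0.00271) and 0.83 ± 0.23 in WT (adjusted p = 0.0262). The WT call was lost without WT PBS replicate 3 or 5 or WT LPS replicate 9 or 10 and passed in the other 8 fits, with values from 0.63 without WT LPS replicate 9 to 1.08 without WT LPS replicate 11. Its neighbour Adamts8, a proteoglycan-cleaving enzyme, showed no call: it measured 57.8, 51.2 and 70.9 CPM in WT PBS, 42, 53.9 and 50 in WT LPS, 74.1, 52.5 and 54.5 in Adm+/- PBS and 48.1, 66.8 and 55.2 in Adm+/- LPS. The 4 ranges overlapped, and the log2 fold changes were −0.30 ± 0.18 in WT (adjusted p = 0.237) and −0.09 ± 0.18 in Adm+/- (adjusted p = 0.74).

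Adamts1, which cleaves versican and had the highest mean per kb of the members, did not pass in any comparison by edgeR. It measured 288, 322 and 272 CPM in WT PBS, 232, 303 and 193 in WT LPS, 282, 312 and 347 in Adm+/- PBS and 373, 450 and 283 in Adm+/- LPS. The LPS libraries of both genotypes overlapped their PBS libraries. Adm+/- exceeded WT under LPS by 0.61 ± 0.19 on the log2 scale, with an unadjusted p of 0.00727 and an adjusted p of 0.127. DESeq2 called the same difference at an adjusted p of 0.0399, as did edgeR without WT LPS replicate 10 (0.80, adjusted p = 0.0435).

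Adamts9, a versicanase also needed for cilium formation, measured 257, 278 and 297 CPM in WT PBS and 303, 294 and 239 in WT LPS. It measured 301, 259 and 289 CPM in Adm+/- PBS and 380, 380 and 357 in Adm+/- LPS, the latter above every other library. Its log2 fold change was 0.01 ± 0.11 in WT (adjusted p = 0.972) and 0.40 ± 0.11 in Adm+/- (adjusted p = 0.0174), the latter inside the fold-change limit. Adm+/- exceeded WT under LPS by 0.42 ± 0.11 (adjusted p = 0.073 by edgeR and 0.00737 by DESeq2). The 2 responses differed by 0.39 ± 0.15 (adjusted p = 0.532).

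Adamts2, the procollagen N-proteinase among the members, was not called. It measured 263, 308 and 383 CPM in WT PBS, 247, 304 and 260 in WT LPS, 321, 238 and 252 in Adm+/- PBS and 302, 322 and 301 in Adm+/- LPS, and the ranges overlapped. The log2 fold changes were −0.23 ± 0.15 in WT (adjusted p = 0.285) and 0.19 ± 0.15 in Adm+/- (adjusted p = 0.379), and their difference was 0.42 ± 0.21 (adjusted p = 0.703).

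Adamts17, of the fibrillin-directed clades, fell in both genotypes. It measured 217, 220 and 329 CPM in WT PBS and 111, 131 and 142 in WT LPS, and 277, 213 and 242 in Adm+/- PBS and 135, 137 and 125 in Adm+/- LPS. The highest LPS library, at 142, lay below the lowest PBS library, at 213. Its log2 fold change was −1.0 ± 0.17 in WT (adjusted p = 0.00223) and −0.88 ± 0.17 in Adm+/- (adjusted p = 0.00232). The responses of the genotypes differed by 0.11 ± 0.23 (adjusted p = 0.996). Both calls held in each of the 12 edgeR fits without 1 library and were lost by the treat test (adjusted p = 0.13 in WT and 0.18 in Adm+/-), with edgeR WT values from −1.10 to −0.77, the latter without WT PBS replicate 5.

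Adamts10, which belongs to the fibrillin-directed clades too, measured 346, 419 and 462 CPM in WT PBS and 243, 288 and 318 in WT LPS. It measured 397, 367 and 462 CPM in Adm+/- PBS and 338, 260 and 307 in Adm+/- LPS. Neither LPS group overlapped its PBS group. The log2 fold change was −0.53 ± 0.15 in WT (adjusted p = 0.0271) and −0.44 ± 0.15 in Adm+/- (adjusted p = 0.0426), so that the WT value was just past the fold-change limit and the Adm+/- value just inside it. Responses differed by 0.09 ± 0.21 between the genotypes (adjusted p = 0.996). The WT call was lost in 4 of the 12 fits, those without WT PBS replicate 4 or 5 or WT LPS replicate 9 or 10.

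Adamts12 likewise stood at the limit. It measured 84.9, 81.2 and 89.4 CPM in WT PBS, 51.9, 62.4 and 59.7 in WT LPS, 82.8, 76.5 and 87.2 in Adm+/- PBS and 64.8, 64.4 and 59.3 in Adm+/- LPS. All 6 LPS libraries lay below all 6 PBS libraries. The log2 fold change was −0.55 ± 0.10 in WT (adjusted p = 0.00289) and −0.39 ± 0.10 in Adm+/- (adjusted p = 0.0112), the latter inside the limit, and their difference was 0.17 ± 0.14 (adjusted p = 0.919). Without WT LPS replicate 9 the WT value was −0.48, inside the limit.

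Marker lists of stromal cells were measured in the same libraries. The 10 fibroblast markers, a list that includes collagen genes, summed to 15895 to 44336 CPM in WT PBS and 11070 to 15533 in WT LPS, and to 15305 to 28608 in Adm+/- PBS and 11798 to 13840 in Adm+/- LPS. The upper ends in PBS were WT PBS replicate 5 and Adm+/- PBS replicate 6, and the other PBS libraries were at 15895 and 16675 in WT and at 15305 and 16453 in Adm+/-. Single members of that list did not move one way: LPS raised 3 (Inmt, Dcn and Lum) and lowered 1 (Wnt2) in WT, and raised 1 (Inmt) and lowered 2 (Wnt2 and Tcf21) in Adm+/-. Without those 2 PBS libraries, Inmt (2.03, adjusted p = 0.0593) and Tcf21 (−0.49, adjusted p = 0.058) did not pass in Adm+/-. In the fits without 1 library, their Adm+/- calls held in 7 and 8 of 12, and the WT calls of Lum and Dcn in 9 and 11. Smooth muscle and pericyte markers (10 genes) summed to 1827 to 2629 CPM in the PBS groups and 1493 to 1943 in the LPS groups, and endothelial markers (10 genes) to 3624 to 4567 and 3190 to 3799. Cartilage markers (9 genes) summed to 208 CPM in WT PBS replicate 5 and to 12.4 to 67.7 CPM in the other libraries. The part of these lists in the members' values was not tested.

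Summed over the 10 members, the level per kb was 231 ± 24.1 CPM per kb in WT PBS, 188 ± 19.2 in WT LPS, 226 ± 15.1 in Adm+/- PBS and 233 ± 15.7 in Adm+/- LPS (SD, n = 3). Within that sum, Adamts15 made up 5.63 ± 1.07% in WT PBS and 12.3 ± 3.75% in WT LPS, and 4.75 ± 0.256% in Adm+/- PBS and 10.7 ± 1.89% in Adm+/- LPS. The share of Adamts17 was 14.1 ± 2.26% and 8.82 ± 1.54% in WT PBS and LPS, and 13.9 ± 1.22% and 7.33 ± 0.146% in Adm+/- PBS and LPS. The makeup of the sum thus differed between treatments, with the share of Adamts17 lower and that of Adamts15 higher in each LPS group without overlap. Adamts4 made up 3.02 ± 0.154% in Adm+/- LPS and 1.51 to 1.83% on average in the other groups.

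**Figure D4:**
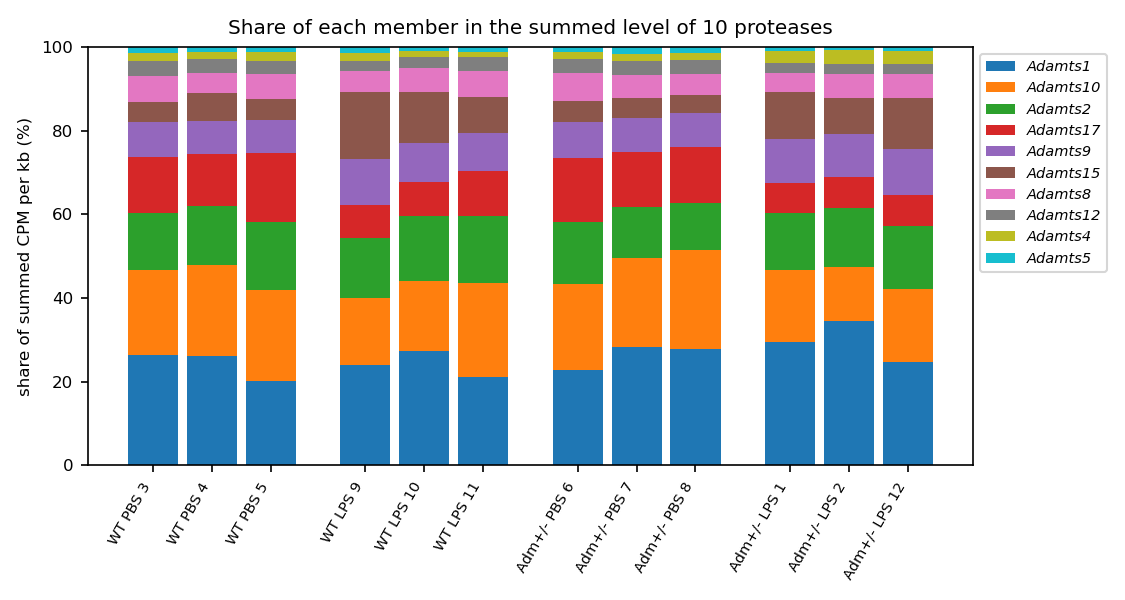
Share of each of the 10 genes in their summed CPM per kb (vertical axis, percent) in each of the 12 libraries (bars, labelled by group and replicate). Adamts1 is the largest share in most libraries, and the brown segment of Adamts15 is 8.53 to 16% in LPS libraries and 4.51 to 6.87% in PBS libraries.

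For each member, the genes with the most similar pattern over the 12 libraries were found by the root mean square difference of log2 CPM after centring each gene, among 15884 other genes. The closest to Adamts4 were Efr3b (0.156) and Slc16a13 (0.236), and the closest to Adamts15 was Ksr1 (0.142). Adamts17 was closest to Smo (0.079) and Pth1r (0.082), Adamts12 to Tns3 (0.066) and Fto (0.074), Adamts10 to Smarca2 (0.097) and Ppox (0.098), and Adamts5 to Uros (0.093) and Tpmt (0.109). Adamts1 was closest to S1pr3 (0.127) and Rnf122 (0.143), Adamts2 to Ptgfrn (0.064) and Lamc1 (0.069), Adamts8 to Aldh18a1 (0.085) and Panx1 (0.087), and Adamts9 to Ptpn23 (0.067) and Mcam (0.070). Among the members themselves Adamts10 and Adamts12 were the closest pair (0.133). The nearest member to Adamts15 was Adamts9 (0.470), which ranked 2092 among all genes. The neighbours on the chromosome were not the nearest members of each other: Adamts1 was nearest to Adamts9, Adamts5 to Adamts12, and Adamts8 to Adamts2.

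Of the other 9 ADAMTS protease genes, 8 were tested. Adamts16 was below the filter, at 0 to 0.279 CPM. LPS raised 2 (Adamts3 and Adamts14) and lowered 1 (Adamts7) in WT, and raised the same 2 and lowered 3 (Adamts7, Adamts18 and Adamts19) in Adm+/-. Adamts3 and Adamts14 are procollagen N-proteinases like Adamts2. Adamts3 rose from 9.69 ± 1.44 to 16.5 ± 3.69 CPM in WT (log2 fold change 0.77, adjusted p = 0.0129) and from 8.82 ± 0.877 to 26.5 ± 2.53 CPM in Adm+/- (1.59, adjusted p = 0.000139). The corresponding changes of Adamts14 were 0.80 (adjusted p = 0.0407) and 1.44 (adjusted p = 0.0014). Of these 3 enzymes, Adamts2 was the one not called in either genotype. Adamts7, the paralogue of Adamts12 in its clade, fell by 0.93 in WT (adjusted p = 0.0131) and by 0.82 in Adm+/- (adjusted p = 0.0159). Adamts18 was at 1.44 ± 0.26 CPM in Adm+/- PBS and 0.312 ± 0.11 CPM in Adm+/- LPS (log2 fold change −2.18, adjusted p = 0.00377), so its change rests on few reads, and Adamts19, a paralogue of Adamts17, fell by 0.74 in Adm+/- (adjusted p = 0.0262). The difference between the genotypes' responses was called for 0 of these 8 by edgeR, with the smallest p for Adamts18 (−1.95, adjusted p = 0.403) and Adamts3 (0.82, adjusted p = 0.408), which lay in opposite directions. In the 12 fits that each left out 1 library, the WT call of Adamts14 held in 3, the Adm+/- calls of Adamts19 and Adamts7 in 8 and 9, and the WT calls of Adamts3 and Adamts7 in 11.

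Of the 7 ADAMTS-like proteins, which share the ancillary domains but lack the protease, Adamtsl2, a fibrillin-binding protein, rose in both genotypes. It went from 105 ± 62.2 to 230 ± 36.3 CPM in WT (log2 fold change 1.13, adjusted p = 0.0396) and from 51.0 ± 14 to 280 ± 57.6 CPM in Adm+/- (2.46, adjusted p = 0.000541). In Adm+/-, Adamtsl4 rose by 0.79 (adjusted p = 0.00309) and Adamtsl5 fell by 0.78 (adjusted p = 0.0259). The other 6 in WT and 4 in Adm+/- did not pass. Without WT PBS replicate 5 and Adm+/- PBS replicate 6, Adamtsl2 in WT was at 0.91 (adjusted p = 0.108). Its WT call held in 5 of the 12 fits without 1 library, where its value ranged from 0.89 to 1.73, the latter without WT PBS replicate 4. The Adm+/- call of Adamtsl5 held in 9 of these fits.

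Among 13 genes of hyalectans and hyaluronan, the substrates of the hyalectanases and their partners, 11 were tested. In WT 2 rose (Has2 and Cd44) and 1 fell (Bcan), and in Adm+/- 4 rose (Has1, Has2, Cd44 and Tnfaip6) and 1 fell (Bcan). Has2, the main hyaluronan synthase, went from 6.28 ± 3.40 to 13.0 ± 3.16 CPM in WT (log2 fold change 1.05, adjusted p = 0.0431), with overlapping ranges, and from 5.04 ± 1.26 to 24.5 ± 2.59 CPM in Adm+/- (2.27, adjusted p = 0.000577). Without WT PBS replicate 5 and Adm+/- PBS replicate 6, neither Has2 (0.78, adjusted p = 0.0735) nor Bcan (−0.65, adjusted p = 0.0931) passed in WT. Cd44, the hyaluronan receptor, changed by 0.70 (adjusted p = 0.035) and 1.08 (adjusted p = 0.00285). Tnfaip6, which transfers heavy chains onto hyaluronan, changed by 1.37 in Adm+/- (adjusted p = 0.0156) and by 0.43 in WT (adjusted p = 0.424). Group means were low for Tnfaip6 (1.93 to 4.97 CPM) and for Bcan (1.6 to 4.41 CPM). Of the 12 fits without 1 library, the WT calls of Has2, Bcan and Cd44 held in 3, 4 and 6, and the Adm+/- calls of Has1 (0.52) and Tnfaip6 in 4 and 10. Without WT PBS replicate 5, Bcan in WT was at −0.65. The versican gene Vcan was at −0.34 ± 0.20 in WT (adjusted p = 0.236) and −0.26 ± 0.20 in Adm+/- (adjusted p = 0.356).

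**Figure D5:**
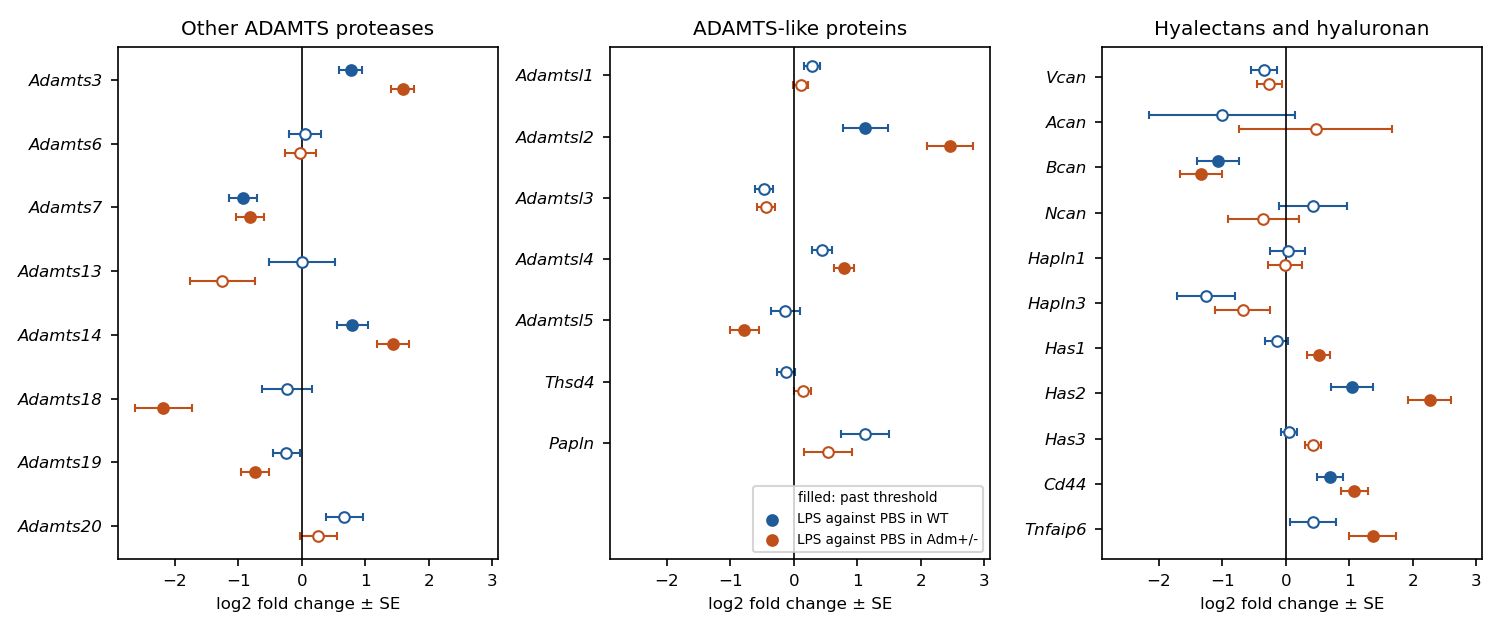
Log2 fold change with LPS (horizontal axes) and its standard error in WT (blue) and Adm+/- (orange) for the tested genes of the other ADAMTS proteases, the ADAMTS-like proteins and the hyalectan and hyaluronan list; filled points passed the threshold. Adamts3, Adamts14, Adamtsl2, Has2 and Cd44 are filled to the right of 0 in both genotypes, and Adamts7 and Bcan are filled to the left.

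Of 7 fibrillar procollagen genes cut by Adamts2, Adamts3 or Adamts14, 0 passed in either genotype by edgeR. Col1a1 was at −1.11 ± 0.43 in WT (adjusted p = 0.0834) and −0.82 ± 0.42 in Adm+/- (adjusted p = 0.169), and without WT PBS replicate 5 and Adm+/- PBS replicate 6 at −0.35 (adjusted p = 0.16) and −0.37 (adjusted p = 0.114). Of 9 microfibril genes, 3 fell in WT (Mfap2, Ltbp2 and Ltbp3) and 3 in Adm+/- (Mfap2, Ltbp3 and Fbn2), and 0 rose. Mfap2, a microfibril-associated glycoprotein, fell by 0.55 in WT (adjusted p = 0.0073) and by 0.57 in Adm+/- (adjusted p = 0.00368). The call of Ltbp3 held in 7 of the 12 fits without 1 library in Adm+/- and in 11 in WT, where it was −0.53 without WT PBS replicate 5, and the WT call of Mfap2 held in 11. Of 11 other known substrates, Dcn (decorin) rose by 1.71 in WT (adjusted p = 0.0127), and Thbs1 (thrombospondin 1) and Fn1 (fibronectin) rose in Adm+/-, by 1.13 (adjusted p = 0.00174) and 0.66 (adjusted p = 0.00629). The WT call of Dcn held in 11 of the 12 fits.

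Of 12 genes for activation, inhibition and clearance of the enzymes, 2 rose (Timp1 and Timp3) and 1 fell (A2m, alpha-2-macroglobulin) in WT, and 5 rose (Furin, Lrp2, Sdc4, Timp1 and Timp3) in Adm+/-. Timp3 went from 283 ± 68.8 to 569 ± 55.6 CPM in WT (log2 fold change 1.01, adjusted p = 0.00186) and from 262 ± 23.7 to 661 ± 58.7 CPM in Adm+/- (1.34, adjusted p = 0.000202). The Adm+/- call of Lrp2 (0.55) held in 5 of the 12 fits without 1 library, and those of the other 4 genes in all 12. Furin, the convertase that removes the propeptide, changed by 0.27 ± 0.14 in WT (adjusted p = 0.19) and 0.76 ± 0.14 in Adm+/- (adjusted p = 0.00243). The difference between the genotypes' responses was called for 0 of the 12 by edgeR. An unadjusted p under 0.05 was found for 4 of the 12 and for 7.85% of all genes tested. Of these 4, A2m had the smallest (0.91, adjusted p = 0.51).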

How the data were processed

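RNA of 12 whole lungs was depleted of ribosomal RNA and sequenced from directional libraries. Per the labels and the study's methods, the authors trimmed the reads with Trim Galore, aligned them with HISAT2 to mm10, and deposited raw counts per Gencode gene from featureCounts; the Gencode release and strand setting are not given in the sources used here. Groups came from the labels. The 21950 protein-coding genes were filtered with filterByExpr, which left 15885, and TMM-scaled. All 12 libraries entered 1 quasi-likelihood fit in edgeR 4.0.16 under R 4.3.3, with 1 coefficient per group and 8 residual degrees of freedom. P-values were two-sided and adjusted by Benjamini-Hochberg over all genes tested, and calls needed an adjusted p under 0.05 and an absolute log2 fold change over 0.5. Standard errors were derived from the F statistic. DESeq2 1.42.0 and limma 3.58.1 were alternatives. CPM per kb used union exon lengths of the Gencode annotation of mm10, and pattern likeness used log2 CPM with a prior count of 2. The fit was tested on simulated data. All 12 within-group pairs of libraries differed by more than counting error (chi-square at least 10 times its degrees of freedom). All 10 members and, from gene lists, the genes past the threshold in either genotype or most abundant were eligible to be named, with the 2 nearest genes per member; 1 nearest gene and 1 overlapping gene are not reported here. Members and lists were chosen with earlier results of these data known.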

Additional observations from a re-analysis of the deposited data

Results flagged for a closer look

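Adamts4 was flagged because its log2 fold change with LPS differed between the genotypes. All 3 WT LPS libraries lay below and all 3 Adm+/- LPS libraries above the PBS libraries of their genotype. The call of the fall in WT held in 3 of the 12 edgeR fits without 1 library. The difference between the log2 fold changes was 1.38 (SE 0.26). Tested as an interaction with edgeR, it had an unadjusted p of 0.000181 and an adjusted p of 0.0819. The adjusted p ranged from 0.000145 by DESeq2 to 0.637 over the alternatives, and the value from 1.20 to 1.53 when 1 library was left out.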

How the results depend on the processing

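The number of members called in WT, 5 with all libraries, was 2 with only the libraries of the comparison, where 7.39% of all genes tested were called, 2 without WT PBS replicate 5 and Adm+/- PBS replicate 6 together (15.3% of all genes), and 2 to 5 when 1 library was left out (1443 genes in all without WT LPS replicate 9, and 2286 to 3074 without any other). Adm+/- against WT under LPS gave 2 members by DESeq2 and 1 to 2 without 1 library, where 0.503% (without Adm+/- LPS replicate 1) to 3.56% (without WT PBS replicate 5) of all genes were called, and the difference between responses gave 1 by DESeq2. The limma-voom treat test against a log2 fold change of 0.5 called 0 members in WT, in Adm+/- and between the genotypes under LPS. It called 3.41%, 7.17% and 0.497% of all genes there. Signs turned only for small values. Adamts9 in WT was −0.025 with all annotated genes and −0.062 to 0.10 without 1 library. Without WT PBS replicate 5 and Adm+/- PBS replicate 6, Adamts8 in Adm+/- was 0.085, the response differences of Adamts10 and Adamts17 were −0.022 and −0.0052, and Adamts4 between genotypes in PBS was 0.052. Without 1 library, Adamts8 in Adm+/- ranged from −0.22 to 0.077, the response differences of Adamts10 from −0.0018 to 0.20 and of Adamts17 from −0.10 to 0.22, and Adamts4 in PBS from −0.17 to 0.066. Between genotypes under LPS, Adamts10 ranged from −0.0044 to 0.19, Adamts15 from −0.15 to 0.30 and Adamts17 from −0.039 to 0.13. Between genotypes in PBS, Adamts5 ranged from −0.00 to 0.16, Adamts8 from −0.16 to 0.14 and Adamts9 from −0.02 to 0.09. There too, Adamts10 ranged from −0.11 to 0.10 and Adamts17 from −0.17 to 0.16. The cause of these changes was not tested. Of the 12 fits without 1 library, the Adm+/- calls of Adamts4, Adamts5, Adamts15 and Adamts17 held in 12. With 3 mice per group, small changes near the fold-change limit cannot be placed firmly on either side. No paired analysis was made because the labels give no litter or other pairing of the mice.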
